A study of Mus musculus with 6 samples.

Results

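The ADAM family (a disintegrin and metalloproteinase) was examined in PDPN+PDGFRα+ stromal cells of mouse melanoma, through 10 genes taken by name from the count table: Adam8, Adam9, Adam10, Adam12, Adam15, Adam17, Adam19, Adam22, Adam23 and Adam33. They are 10 of 53801 genes in the table. The tumors grew from MO5 cells, a B16 melanoma line that carries ovalbumin, implanted under the skin of young adult mice on a C57Bl/6 background. RNA was sequenced from 3 libraries of ADAM12-DTR mice (DTR, genotype DTR+), which carry a BAC transgene that places the tetracycline transactivator and the diphtheria toxin receptor under Adam12 control, and from 3 libraries of non-transgenic, sex-matched littermates (Ctrl, genotype DTR-). All mice of both groups received diphtheria toxin, so the groups differ in the transgene. The toxin kills cells that carry the receptor, and the comparison asks how the stromal cells that remain differ from those of littermates. Cells positive for CD45 or CD31 were gated out before the sort. Nothing in the labels states that the libraries came from separate animals, so p-values measure the spread between these libraries, which may be technical. The study's methods state that n counts mice unless noted otherwise, but its figure legend gives no n for these libraries.

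ADAM proteins are membrane-anchored, with a metalloproteinase domain, a disintegrin domain that can bind integrins, and a short cytoplasmic tail. The active members release the outer part of other membrane proteins, among them growth factors, cytokines and adhesion molecules, in a process called ectodomain shedding. In stroma, ADAM12 is known as a mark of activated mesenchymal cells that appear in injured and tumor tissue. ADAM22 and ADAM23 lack protease activity and act as adhesion receptors for LGI proteins.

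The bases that encode the zinc-binding active site separate the family into its active and inactive members. The coding sequences below, from the GENCODE M21 annotation of GRCm38, are read 5′ to 3′ over 33 bases, and the capitals mark the 5 codons of the site, which encode histidine, glutamate, histidine, glycine and histidine in active ADAMs. They are shown for Adam12, for Adam8 and Adam19, whose windows were the most like it, and for the members without the motif.
Adam12, chr7:133961158-133961190, minus strand, exon 11 of 23: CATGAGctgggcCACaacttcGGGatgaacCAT
Adam8, chr7:139987893-139987925, minus strand, exon 11 of 24: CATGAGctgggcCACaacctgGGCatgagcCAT
Adam19, chr11:46125050-46125082, plus strand, exon 11 of 23: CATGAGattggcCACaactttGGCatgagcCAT
Adam22, chr5:8143064-8143096, minus strand, exon 13 of 30: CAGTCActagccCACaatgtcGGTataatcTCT
Adam23, chr1:63547763-63547795, plus strand, exon 13 of 26: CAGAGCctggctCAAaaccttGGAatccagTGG

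The motif was found in 8 of the 10 members. Adam22 keeps 2 of the 5 codons and Adam23 keeps 1. Over the 33 bases, Adam8 shares 29 with Adam12 and Adam19 shares 28, and the fewest, 17, are shared by Adam23. The 10 transcripts share no stretch of 50 bases with each other, so exact matches of that length cannot move reads between members. Of the 50-base stretches of Adam12, 3.03% also occur in other annotated genes. On GRCm38, Adam12 and Adam8 lie on the same chromosome, and the others are spread over 8 more. The genes differ widely in length. Adam22 (chr5:8072352-8368160) spans 296 kb and Adam23 (chr1:63445891-63596276) 150 kb, while Adam8 (chr7:139978932-139992562) and Adam33 (chr2:131050591-131063814) span 13.6 and 13.2 kb.

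The libraries hold 22339635 to 34271929 reads assigned to genes, and 15133 genes passed edgeR's expression filter, all 10 members among them. Levels are given as CPM (counts scaled to library size, here with edgeR's TMM factors), on which 3 reads, taken as the floor of detection, equal 0.0873 to 0.132 CPM. This floor and the intervals on shares cover counting error only. The fibroblast markers, Pdgfra and Pdpn included, were present in every library, but so were pigment-cell markers. The 10 fibroblast markers summed to 5217 to 13691 CPM in Ctrl and 5611 to 14170 in DTR. The 10 melanoma markers, none of which is part of the sort, summed to 16627 to 19380 CPM in Ctrl and 15551 to 18407 in DTR. All markers of both lists were detected in every library, so the values below are those of a sorted fraction that also holds pigment-cell transcripts, and no member's reads can be assigned to either source.

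Adam12, the gene whose control region drives the toxin receptor, lies on the minus strand of chromosome 7 of GRCm38 from 133883199 to 134232146 (ENSMUSG00000054555), with 3 other genes annotated within its introns on the same strand. It was read 5287, 4317 and 4983 times in Ctrl replicates 1, 2 and 3, which is 216, 181 and 175 CPM. In DTR replicates 1, 2 and 3 it was read 5669, 4694 and 2534 times, which is 165, 151 and 112 CPM. Each DTR library was below each Ctrl library, DTR 3 was the lowest, and the transcript was still abundant in all 3 DTR libraries. Summed markers of mural cells, which wrap blood vessels, were also lowest in DTR 3, at 98.2, 56.6 and 78.8 CPM in Ctrl and 52.7, 59.7 and 44.2 CPM in DTR, with overlap. Of 7 mural markers tested, 6 had negative log2 fold changes (median -0.73), and the groups did not overlap for 1, Cspg4 (-1.02), while 0 passed the adjusted threshold of edgeR, and their part in the Adam12 values was not tested. Adam12 averaged 191 ± 22.1 CPM in Ctrl against 143 ± 27.6 CPM in DTR (SD, n = 3 each), and the fitted level in DTR was 0.748 of that in Ctrl. The log2 fold change was -0.42 (standard error, SE, 0.154, 95% interval -0.77 to -0.06), its unadjusted p was below 0.05, and its adjusted p was 0.602 from edgeR (quasi-likelihood F, Benjamini-Hochberg adjustment across every gene that passed the filter). A two-sided exact permutation test gave p = 0.1, the smallest that 3 libraries against 3 allow. Whether reads from the BAC transgene were counted on Adam12 in DTR was not tested. In a bulk library, fewer cells of a type and less RNA per cell cannot be told apart.

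Leaving out 1 library at a time kept that log2 fold change negative, from -0.52 without DTR replicate 1 to -0.27 without DTR replicate 3, the latter with an adjusted p of 0.819 in edgeR's test with Benjamini-Hochberg adjustment. The test in the study's methods, DESeq2's Wald test, gave an adjusted p of 0.530. Adam12 is a long gene of 349 kb, against a median span of 22.6 kb, and long genes as a class had more reads in the DTR libraries. Over 8883 genes of up to 30 kb the median log2 fold change was -0.04, and over 410 genes above 300 kb it was 0.19. With an offset for genomic span, Adam12 was lower by a log2 fold change of -0.66, with an adjusted p of 0.430 in edgeR's test and 0.0382 in DESeq2's Wald test, both with Benjamini-Hochberg adjustment. The latter is the only setting run that took Adam12 past 0.05, and with the offset fitted on all genes with a count, chosen after seeing the data, the adjusted p of DESeq2's Wald test was 0.0934.

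**Figure D1:**
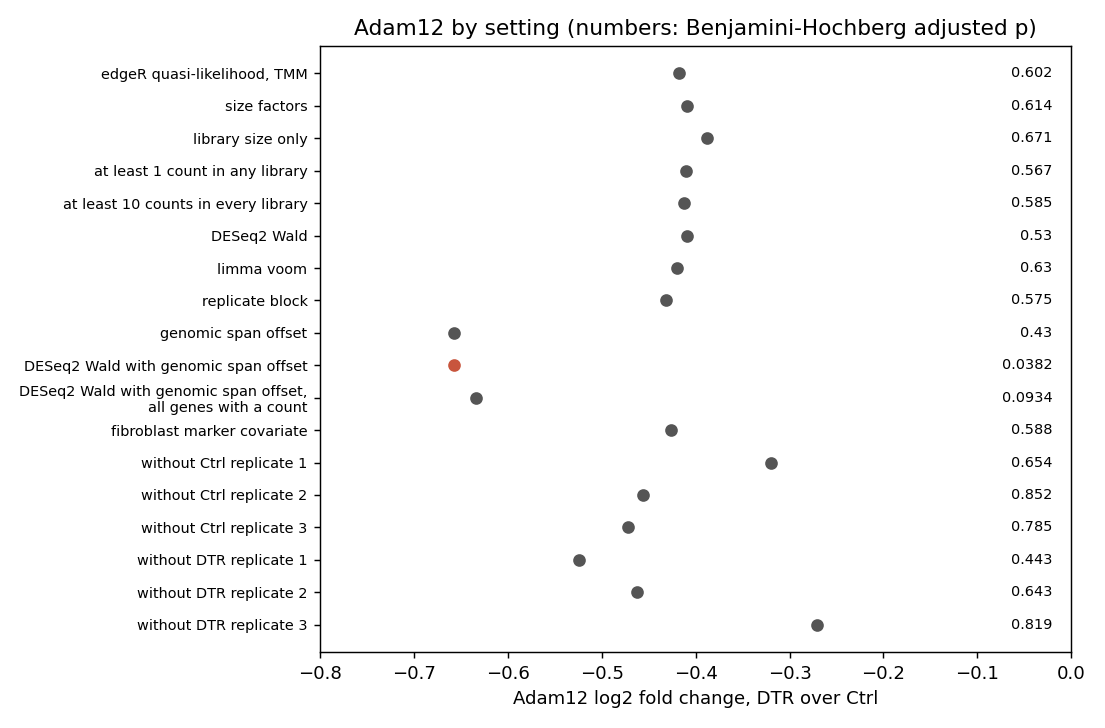
Log2 fold change of Adam12, DTR over Ctrl (x axis), under each way of fitting the counts (y axis), with the Benjamini-Hochberg adjusted p printed at the right and the point past 0.05 in red. All 18 points lie below 0, from -0.66 with the genomic span offset to -0.27 without DTR replicate 3.

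For the closest relatives of ADAM12 the groups overlapped. The meltrins ADAM9, ADAM12 and ADAM19 and the related ADAM33 and ADAM8 are active sheddases. Adam19, whose product is known for shedding neuregulin in the developing heart, was at 34.3, 17.9 and 18.6 CPM in Ctrl replicates 1 to 3 and at 32.5, 26.5 and 42.3 CPM in DTR replicates 1 to 3. Only Ctrl 1 overlapped the DTR libraries. The log2 fold change of Adam19 was 0.52 (SE 0.278, adjusted p = 0.655 in edgeR's test with Benjamini-Hochberg adjustment), and leaving out 1 library at a time moved it between 0.32 and 0.89. The latter was without Ctrl replicate 1, where the groups no longer overlapped, as for 26.1% of all genes tested in that setting. The libraries with the 3 highest Adam19 levels, DTR 3, Ctrl 1 and DTR 1, were also the 3 with the highest summed fibroblast markers, at 14170, 13691 and 10880 CPM against 5217 to 5611 in the other libraries. With that sum as a covariate, chosen after seeing the data, the log2 fold change of Adam19 was 0.33. Its unadjusted p in edgeR's test was then 0.0325, against 0.101 without the covariate, and its adjusted p was 0.600.

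Adam33, a susceptibility gene for asthma that is expressed in mesenchymal cells, had few reads, with 51, 24 and 80 in Ctrl and 87, 46 and 196 in DTR replicates 1, 2 and 3. At 8.64 CPM, DTR 3 stood above the other 5 libraries, which lay between 1.01 and 2.81 CPM and overlapped between groups. Its log2 fold change of 1.08 (SE 0.678) became 0.03 without DTR replicate 3. It was 0.44 with the fibroblast marker sum as a covariate and 0.65 in limma voom.

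Adam9, a broadly expressed sheddase, was at 186, 160 and 147 CPM in Ctrl and 183, 159 and 184 CPM in DTR, groups that overlapped throughout. The 95% interval of its log2 fold change ran from -0.16 to 0.35. Adam8, best known from myeloid cells, was at 8.62, 5.99 and 7.28 CPM in Ctrl and 6.34, 6.31 and 5.78 CPM in DTR. Ctrl 2 lay within the range of DTR, and the log2 fold change was -0.25 (SE 0.207), running from -0.37 without Ctrl replicate 2, where the groups no longer overlapped, to -0.11 without Ctrl replicate 1. Summed macrophage markers were 125 to 206 CPM in Ctrl and 141 to 152 in DTR. The 9 neutrophil markers summed to 7.72 CPM in Ctrl 1, which was also the highest library for Adam8, and to 1.34 to 2.04 CPM in the other 5 libraries. Of these markers 2, Ly6g and Camp, had no reads in any library, and the part of such cells in the Adam8 values was not tested. Adam15, whose disintegrin domain binds integrins, averaged 26.7 ± 2.27 CPM (SD, n = 3) in Ctrl and 28.7 ± 4.53 in DTR.

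The most widely studied sheddases of the family lay within narrow limits. ADAM10 is the protease that cleaves Notch receptors after ligand binding. Its transcript was at 231, 262 and 269 CPM in Ctrl and 256, 289 and 249 CPM in DTR, with the groups interleaved. The log2 fold change of Adam10 was 0.06, and its 95% interval of -0.17 to 0.29 bounds the difference on both sides. ADAM17 releases TNF and several ligands of the EGF receptor. Its transcript was at 77.3, 76.2 and 79.5 CPM in Ctrl and 79.2, 83.8 and 85.3 CPM in DTR, and DTR 1 lay just below Ctrl 3. The log2 fold change of Adam17 was 0.09 (95% interval -0.09 to 0.28), and its coefficient of variation, 2.16% in Ctrl and 3.84% in DTR, was the lowest of the 10 members in either group. With the offset for genomic span, the log2 fold changes of Adam10 and Adam17 were -0.08 and -0.0003, under a median of all genes that itself moved to -0.07 in that edgeR fit.

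Both members without protease activity were highest in DTR 3. Adam22 had 101, 47 and 80 reads in Ctrl and 163, 117 and 235 in DTR, which is 4.12, 1.97 and 2.81 CPM against 4.74, 3.77 and 10.4. Ctrl 1 lay above DTR 2, and the other 2 Ctrl libraries lay below all of DTR. Adam22 had a log2 fold change of 1.08 (SE 0.448, 95% interval 0.04 to 2.11), its unadjusted p was below 0.05, and its adjusted p was 0.609 in edgeR's test with Benjamini-Hochberg adjustment. Without DTR replicate 3 the value was 0.52 (adjusted p = 0.882 in edgeR's test), and with the fibroblast marker sum as a covariate it was 0.72. It was 1.38 without Ctrl replicate 1 and 1.34 without DTR replicate 2, where the groups no longer overlapped. With the offset for genomic span it was 0.84, with an unadjusted p of 0.0920 in edgeR's test and 0.0487 in DESeq2's Wald test. In limma voom it was 0.91 (unadjusted p = 0.0828).

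Adam23 was at 33.0, 31.6 and 31.3 CPM in Ctrl, the second-tightest group among the members after Adam17, and at 44.0, 17.5 and 64.0 CPM in DTR. The DTR libraries lay on both sides of Ctrl, DTR 2 below it and DTR 1 and DTR 3 above. The log2 fold change was 0.39 (SE 0.383), -0.05 without DTR replicate 3, -0.03 with the fibroblast marker sum as a covariate and 0.16 in limma voom. Without DTR replicate 2 it was 0.75, with an unadjusted p of 0.0027 and an adjusted p of 0.608 in edgeR's test. The groups then no longer overlapped, as for 24.1% of all genes tested in that setting. The ligands of these receptors were counted too. Among the LGI genes, Lgi3 had 27, 20 and 14 reads in Ctrl and 41, 14 and 86 in DTR, and Lgi4 was at 19.3, 21.7 and 13.0 CPM in Ctrl and 11.7, 13.9 and 17.6 CPM in DTR. The groups overlapped for both.

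**Figure D2:**
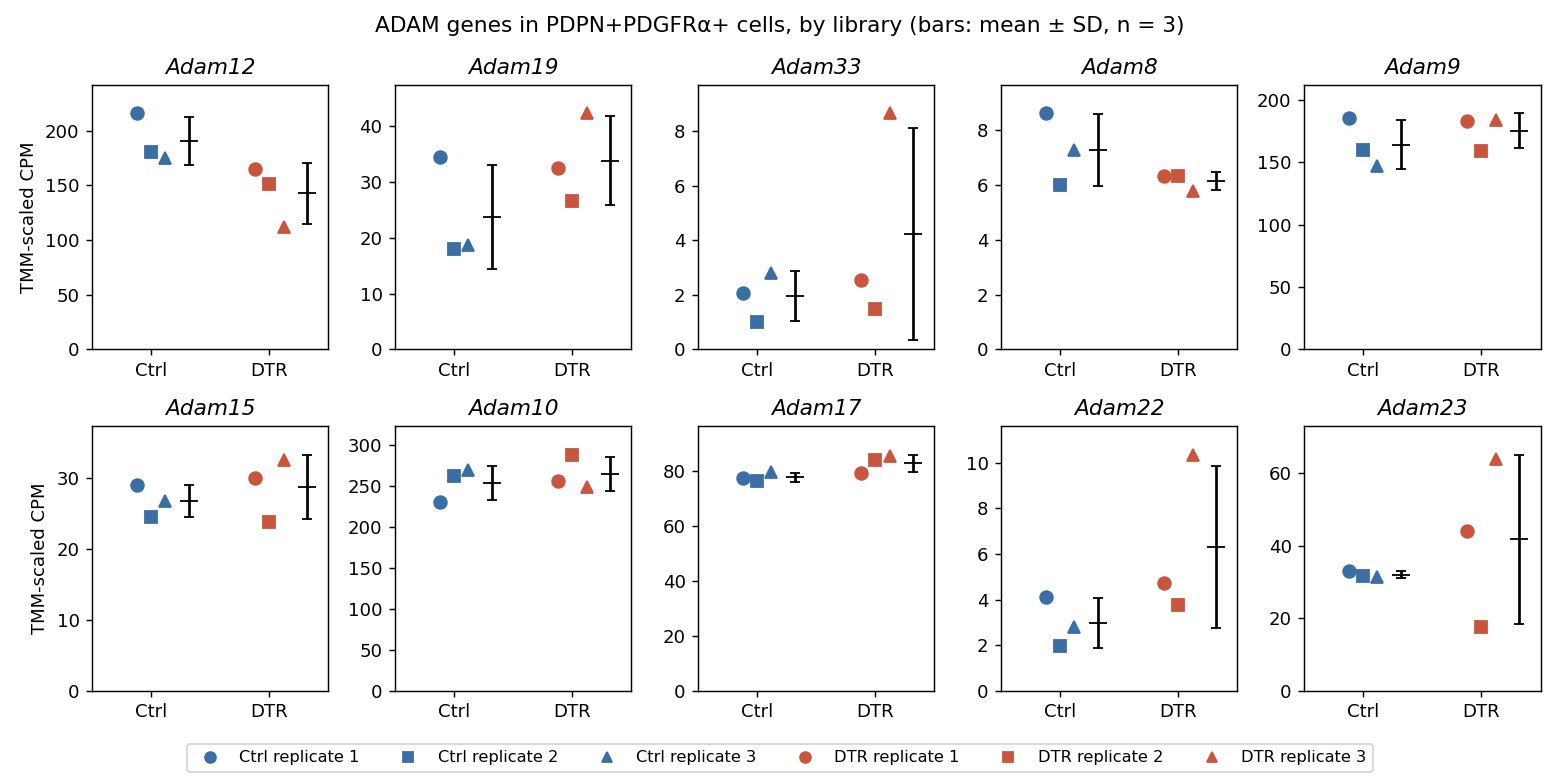
TMM-scaled CPM (y axis, from 0) of each of the 10 members in the 3 Ctrl libraries (blue) and the 3 DTR libraries (red), with the mean ± SD of each group as a black bar. In Adam12 all DTR points lie below all Ctrl points, while Adam22, Adam23 and Adam33 have their highest value in DTR replicate 3.

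Over the 10 members, edgeR's test with Benjamini-Hochberg adjustment made 0 calls at an adjusted p under 0.05, as it did over all genes tested (0%), where the lowest adjusted p was 0.602. With DESeq2's Wald test there were 31 calls (0.151% of 20519 genes with an adjusted p) and 0 among the members. An unadjusted p under 0.05 in edgeR's test was reached by 2 members, Adam12 lower and Adam22 higher, against 7.92% of all genes tested, and in DESeq2's by 3, Adam19 being the other, against 4.89% of 26748 genes with a DESeq2 p, sparse genes included. The groups did not overlap for 1 member, Adam12, and for 14.5% of all genes tested (8.18% with DTR lower and 6.32% with DTR higher). Log2 fold changes were positive for 8 members and negative for Adam8 and Adam12. Their median was 0.10, beside -0.0029 over all genes tested, and of all genes tested 7.04% had a lower log2 fold change than Adam12.

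**Figure D3:**
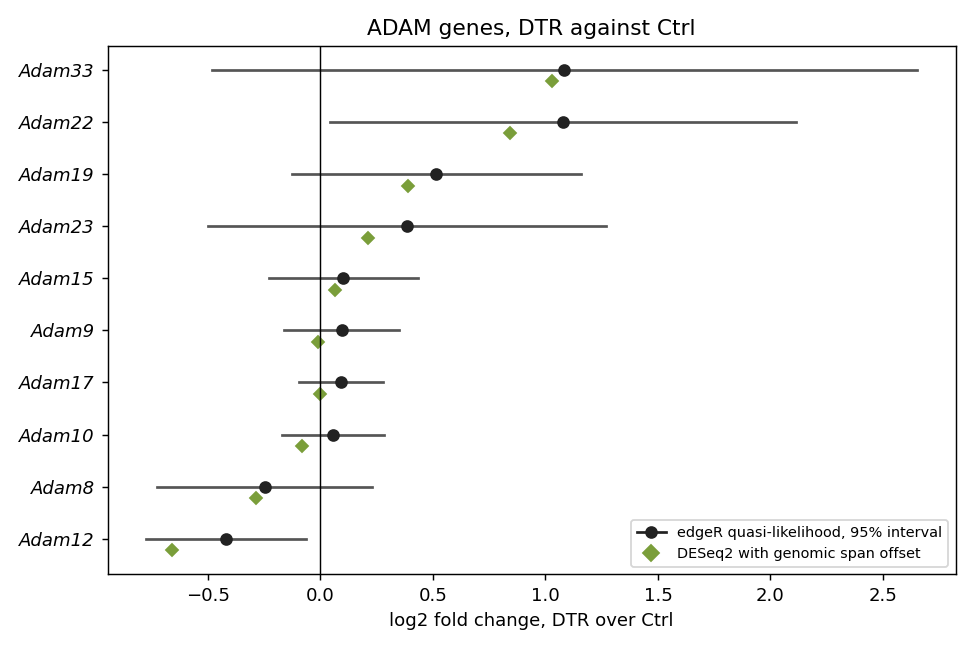
Log2 fold change, DTR over Ctrl (x axis), of the 10 members (y axis) with the 95% interval of edgeR's quasi-likelihood fit (black), and the value of DESeq2 with an offset for genomic span (green). The intervals of Adam12 and Adam22 leave out 0, on opposite sides, and the span offset lowers the value of every member. Over the same 15133 genes, the median in DESeq2 is 0.0067 without that offset and -0.07 with it.

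Per length, Adam10 and Adam9 were the leading members of the family in this sorted fraction, which also holds pigment-cell transcripts. Levels per kilobase of merged exons, averaged over the 6 libraries, were 52.8 for Adam10, 41.3 for Adam9, 15.8 for Adam12, 11.2 for Adam17, 4.51 for Adam15, 4.03 for Adam19, 2.06 for Adam23, 1.45 for Adam8, 0.573 for Adam33 and 0.323 for Adam22, in CPM per kb. Merged exons pool all annotated transcripts of a gene, from 4115 bases for Adam9 to 17907 for Adam23, so the order depends on annotated length. Before division by length, Adam12 was above Adam9 in each Ctrl library and below it in each DTR library. The libraries of neighbours in this order did not overlap between Adam10 and Adam9, Adam9 and Adam12, or Adam17 and Adam15, while the other neighbours overlapped. Adam12 lay above Adam17 in 5 of the 6 libraries and below it in DTR 3, at 10.6 against 11.9 CPM per kb. Of all genes tested, 83.7% had a lower level per kb than Adam12, and 96.3% a lower level than Adam10.

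**Figure D4:**
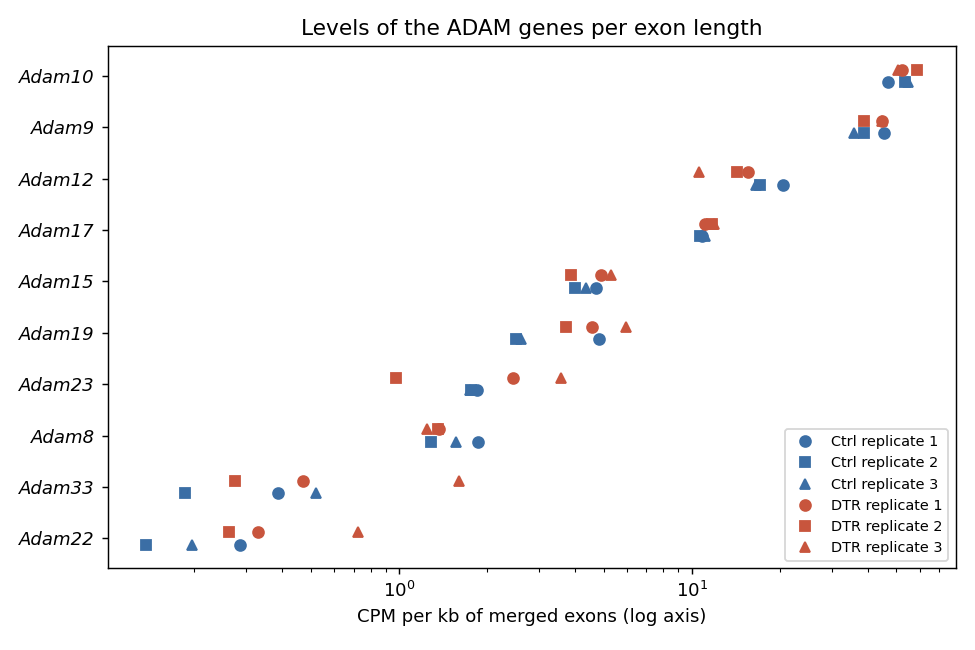
CPM per kb of merged exons (x axis, log scale) of each member (y axis) in the 3 Ctrl libraries (blue) and 3 DTR libraries (red). The order runs from Adam10, at 46.9 to 58.7 CPM per kb, to Adam22, at 0.137 to 0.722, and Adam12 lies above the range of Adam17 in every library except DTR replicate 3.

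A share within a library does not depend on how libraries are scaled to each other. Reads on Adam12 made up 26.3%, 23.7% and 23.0% of the reads on the 10 members in Ctrl replicates 1 to 3, and 20.5%, 19.8% and 14.1% in DTR replicates 1 to 3. All DTR shares were below all Ctrl shares. The 95% exact binomial intervals on the counts, the widest of them 23.1% to 24.4% in Ctrl 2, did not bridge the groups. The mean share was 24.4% ± 1.72 in Ctrl against 18.2% ± 3.53 in DTR (SD, n = 3 each), a difference of -6.20 percentage points (p = 0.1 in a two-sided exact permutation test, which can go no lower). The summed level of the 10 members was 781 ± 34.5 CPM (SD, n = 3) in Ctrl and 786 ± 21.7 in DTR (exact permutation test, p = 0.9). Without DTR replicate 3 the difference in share was -4.17 points. Reads on Adam12 per read on Adam9 were 1.16 ± 0.0290 (SD, n = 3) in Ctrl and 0.820 ± 0.184 in DTR, again without overlap.

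Set against Pdgfra, a marker of the sort, the picture was less clear. Pdgfra was at 125, 42.7 and 63.0 CPM in Ctrl and 96.7, 54.0 and 132 CPM in DTR, overlapping groups with the lowest value in Ctrl 2. Reads on Adam12 per read on Pdgfra were 1.73, 4.24 and 2.78 in Ctrl and 1.70, 2.80 and 0.848 in DTR. These overlapped as well (exact permutation test, p = 0.3), with DTR 3 the lowest and Ctrl 2 the highest. With the fibroblast marker sum as a covariate, the log2 fold change of Adam12 was -0.43, with an adjusted p of 0.588 in edgeR's test with Benjamini-Hochberg adjustment.

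**Figure D5:**
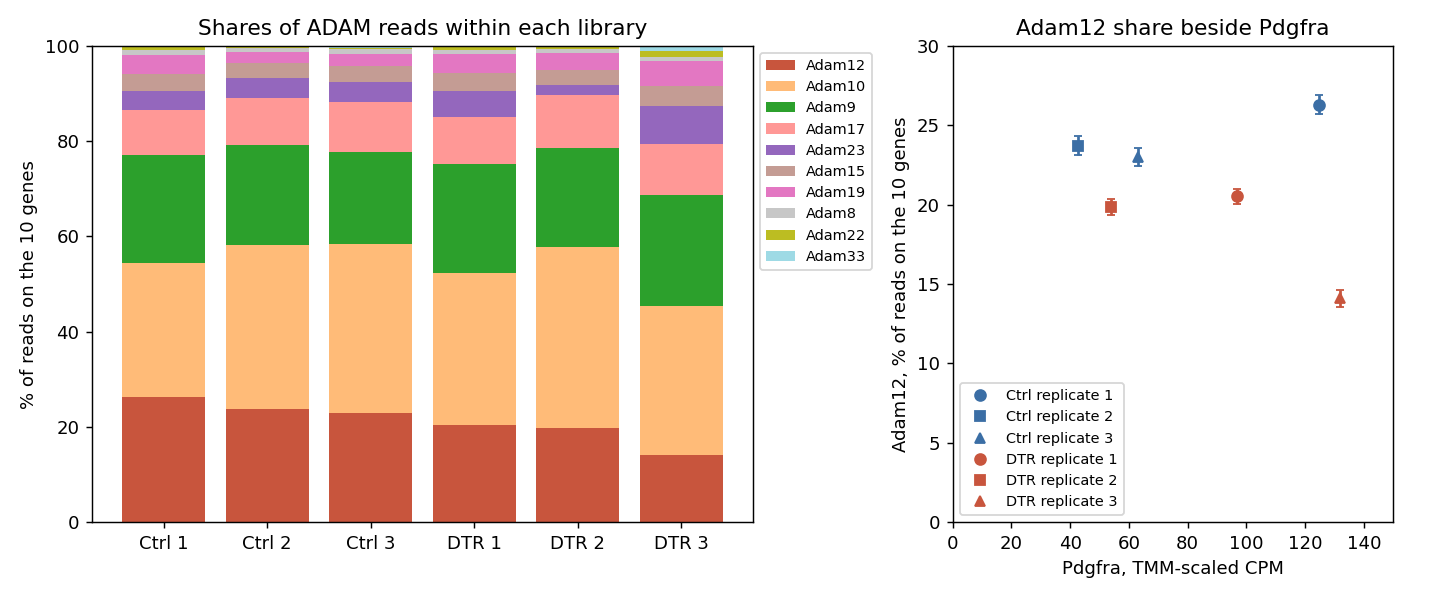
Left, shares of the reads on the 10 members within each library (stacked bars, % of reads). Right, the Adam12 share (y axis, %, bars are 95% exact binomial intervals of the counts) against Pdgfra (x axis, TMM-scaled CPM) for 6 libraries, where the DTR libraries lie at 14.1% to 20.5% and the Ctrl libraries at 23.0% to 26.3% over overlapping ranges of Pdgfra.

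The genes whose levels over the 6 libraries followed Adam12 most closely were not other ADAM genes. Likeness was measured as the root mean square difference of log2 CPM, each gene centred on its own mean, over 8792 genes with a mean of at least 10 CPM. Nearest were Fam162a at 0.0475, Ldha, which encodes the lactate dehydrogenase A subunit, at 0.0507, Hmgn2, a nucleosome-binding protein, at 0.0576, Exosc2, a subunit of the RNA exosome, at 0.0591, and Rbm38, an RNA-binding protein, at 0.0605, against a median of 0.307. As for Adam12, the groups did not overlap for Ldha, at 715, 593 and 605 CPM in Ctrl and 578, 521 and 407 CPM in DTR. Among members above that limit the nearest to Adam12 was Adam10, at 0.330, while Adam8, whose mean lies below the limit, was at 0.190. With 6 points per profile this is a description, and the lower DTR level that Adam12 shows is itself part of the measure.

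The EGF family holds many known substrates of ADAM10, ADAM12 and ADAM17. A list of its ligands together with their receptors, which are not counted here as substrates, had 10 tested genes. Of these, 4 were lower, the receptor gene Erbb2 among them, and 1 was higher at an unadjusted p under 0.05. Over all genes tested 4.11% were lower and 3.81% higher, and 0 of the 10 passed the adjusted threshold in edgeR's or DESeq2's test. In all 5, genes already taken for a low p, the groups did not overlap, as in 14.5% of all genes tested. Hbegf, which encodes a substrate of ADAM12, was at 11.7, 9.97 and 10.8 CPM in Ctrl and 8.23, 7.41 and 7.98 CPM in DTR, with a log2 fold change of -0.46 (SE 0.158). The diphtheria toxin receptor is itself the primate form of this protein, and whether transgene reads were counted on mouse Hbegf was not tested.

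Tgfa, encoding TGF-α, a substrate of ADAM17, was at 5.92, 8.63 and 7.80 CPM in Ctrl and 4.30, 4.12 and 1.85 CPM in DTR (log2 fold change -1.11, SE 0.346). Ereg, encoding epiregulin, had a log2 fold change of -1.52 (SE 0.577) and was at 8.05 CPM in Ctrl 1 but at 1.28 to 2.71 CPM in the other 5 libraries. Erbb2, which encodes a coreceptor of the family, differed by a log2 fold change of -0.33 (SE 0.133). In the other direction, Nrg1, encoding the substrate neuregulin, had 40, 18 and 7 reads in Ctrl and 79, 147 and 48 in DTR (log2 fold change 1.80, SE 0.665). The lowest adjusted p among these 5 genes was 0.602 (edgeR's test with Benjamini-Hochberg adjustment), and the median over the 10 tested was -0.24.

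Regulators of the proteases were mixed in direction, with 17 of 18 tested. At an unadjusted p under 0.05, 2 were lower and 2 higher, beside 4.11% lower and 3.81% higher of all genes tested, 0 passed the adjusted threshold, and the median log2 fold change was -0.07. Timp3, which encodes the main inhibitor of ADAM17 among the TIMPs and also inhibits ADAM10 and ADAM12, was at 64.8, 34.8 and 33.8 CPM in Ctrl and 85.0, 63.2 and 163 CPM in DTR. Only Ctrl 1 reached into the range of DTR. Its log2 fold change was 1.22 (SE 0.381, unadjusted p under 0.05, adjusted p = 0.602 in edgeR's test with Benjamini-Hochberg adjustment). Timp1 had the lowest log2 fold change of the list (-0.62, SE 0.379), and was at 55.0, 25.2 and 18.6 CPM in Ctrl and 23.8, 24.4 and 15.8 CPM in DTR. Pcsk6, a proprotein convertase of the kind that removes ADAM prodomains, had the highest log2 fold change of the list, 1.79 (SE 0.732). It was at 49.0 CPM in DTR 3 and 4.32 to 12.2 CPM elsewhere. The tetraspanins Tspan10 and Tspan14, which escort ADAM10 to the cell surface, had log2 fold changes of -0.26 (SE 0.107) and -0.28 (SE 0.118), with all DTR libraries below all Ctrl libraries. The same held, outside the rule for named genes and seen in the values, for the iRhoms Rhbdf1 (log2 fold change -0.22) and Rhbdf2 (-0.28), partners of ADAM17. The unadjusted p of Rhbdf1 was 0.101 and that of Rhbdf2 0.0771 in edgeR's test. In all, the groups did not overlap for 4 of the 17 regulators, each lower in DTR. Of all genes tested, 8.18% did not overlap with DTR lower, and 14.5% in either direction.

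Of 16 tested binding partners of ADAM tails and disintegrin domains, 0 had an unadjusted p under 0.05 in edgeR's test, beside 7.92% of all genes tested, and 0 an adjusted p under 0.05 in DESeq2's, and the median log2 fold change was -0.09. The values ran from -0.32 for Lgi4 to 1.15 for Lgi3.

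Among 31 tested other substrates, 2 were higher at an unadjusted p under 0.05 and 0 lower, which is 6.45% beside 7.92% of all genes tested, with 0 past the adjusted threshold and a median log2 fold change of 0.14. Igfbp5, encoding an IGF-binding protein that ADAM12 cleaves, was at 65.7, 46.6 and 41.7 CPM in Ctrl and 88.0, 69.7 and 799 CPM in DTR. All DTR libraries lay above Ctrl, and DTR 3 stood far above the rest. Kitl, encoding stem cell factor, which is shed from the cell surface, was at 8.05, 4.10 and 7.66 CPM in Ctrl and 10.8, 10.4 and 23.2 CPM in DTR (log2 fold change 1.16, SE 0.379). The lowest log2 fold change of the list was that of Tnf (-0.78), which was at 1.27, 2.14 and 1.69 CPM in Ctrl and 0.989, 0.870 and 1.10 CPM in DTR. DTR 3, the highest library for Igfbp5, Kitl, Pcsk6, Timp3, Adam22, Adam23 and Adam33, also had the highest sum of 8 endothelial markers, at 100.3 CPM against 27.0 to 47.2 in the other libraries, of which Tek gave 62.9 while Cdh5 had no reads. The part of the endothelial signal in these values was not tested, while the fits with the fibroblast marker sum, also highest in DTR 3, are given above for Adam22, Adam23 and Adam33.

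Genes that the study names as higher in ADAM12+ cells, from work outside these libraries, had mostly positive log2 fold changes. Genes it names as lower in those cells, Ldha among them, are not part of this list. Of 26 such genes, 0 had an unadjusted p under 0.05 in edgeR's test, beside 7.92% of all genes tested, and 0 an adjusted p under 0.05 in DESeq2's, beside 0.151%. Their median log2 fold change was 0.30, with 20 positive and 6 negative. The values ran from -0.38 for Ccl2, a monocyte chemoattractant, to 0.90 for Ngfr, a neurotrophin receptor. Libraries at the edges decided the median, which was 0.69 without Ctrl replicate 1 and 0.0021 without DTR replicate 3, and it was 0.03 with the fibroblast marker sum as a covariate.

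The table holds 23 further ADAM genes, and 14 of them had no reads in any library. Another 6 had at most 32 reads over all 6 libraries and did not pass the filter. The 3 that passed were sparse. Adam11, which like Adam22 and Adam23 encodes a member without protease activity, had 233 reads in all and was at 1.16 ± 0.552 CPM (SD, n = 3) in Ctrl and 1.60 ± 0.561 in DTR. Adam32 had 77 reads in all and Adam5 had 68, and both are known mainly from testis. Their log2 fold changes of 0.47, 1.07 and 0.27 had adjusted p values of 0.811, 0.735 and 0.935 in edgeR's test with Benjamini-Hochberg adjustment.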

How the data were processed

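PDPN+PDGFRα+ cells were sorted from MO5 tumors, and stranded libraries of total RNA were made from low input. The authors trimmed reads with cutadapt 3.4, aligned them to GRCm38 with STAR 2.7.3a and counted them per gene with featureCounts 2.0.1, using strand. The deposited raw counts were used here. The authors also deposited, from DESeq2, a score per library (counts over size factors, rounded), the ratio and log2 fold change between groups, p-values, dispersions and Cook's distances, and none of these was used. Exons of Adam8, Adam15, Adam17 and Adam19 overlap genes on the opposite strand.

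Gene models and sequences came from GENCODE M21 (GRCm38), which holds 53706 of the 53801 identifiers. Genes were kept with edgeR's filterByExpr (minimum count 10, minimum total 15), scaled with TMM factors and compared by two-sided quasi-likelihood F tests, whose p-values were adjusted by Benjamini-Hochberg across 15133 genes (threshold 0.05). Single values were compared with exact permutation tests, which cannot fall below 0.1 here. Log2 profiles used a pseudocount of 0.1 CPM. Alternatives were other scaling and filters, DESeq2, limma voom, a replicate block, a loess offset (span 0.5) on log2 genomic span, and each library left out. A fibroblast marker covariate and an offset fitted on all genes with a count were added after seeing the data. On counts simulated from these libraries, edgeR called 200 of 200 genes changed 4-fold and 13 unchanged genes, and DESeq2 called 200 and 27, in a table of 15133. The simulation gave every gene the same dispersion and drew the changed genes from those with higher counts. It therefore does not show whether smaller changes, or changes in sparser or more variable genes, would be called.

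The members and gene lists were chosen with earlier results of these data known. Named genes are all members, other ADAM genes that passed the filter, the sorting markers, the ends of each list and its genes with an unadjusted p under 0.05 (at most 4), and the 5 profiles nearest to Adam12. Erbb2, Rhbdf1, Rhbdf2, Kdr and Pecam1 are named outside that rule, after their values were seen. No 2 libraries held the same counts, and counts were equal for at most 1.02% of tested genes. Across genes, libraries correlated with r of 0.973 to 0.984 within groups and 0.967 to 0.985 between them. Versions were DESeq2 1.42.0, limma 3.58.1 and edgeR 4.0.16 in R 4.3.3, with Biopython 1.88 and matplotlib 3.10.9 in Python 3.11.15.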

Additional observations from a re-analysis of the deposited data

How the results depend on the processing

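Over all genes, edgeR's 0 calls became 31 with DESeq2's Wald test, 44 with DESeq2 and the span offset, 26 with that offset fitted on all genes with a count, and 0 to 2 with 1 library left out. For the 10 members the count of calls was 1 with DESeq2 and the span offset, which is Adam12 at a log2 fold change of -0.66 (adjusted p = 0.0382), and 0 otherwise. Adam12 was negative in all 17 alternatives, with adjusted p from 0.0382 to 0.852. Members whose groups did not overlap numbered 1 to 4 with 1 library left out, 3 without Ctrl replicate 1 and 4 without DTR replicate 2, beside 26.1% and 24.1% of all genes tested, and 14.5% with all libraries, since an arm of 2 overlaps less easily by its construction. No such count could be had for the replicate block or the covariate. Over the same 15133 genes, the span offset moved the median log2 fold change from -0.0029 to -0.0750 in edgeR, and from 0.0067 to -0.0749 in DESeq2 and -0.0903 when fitted on all genes with a count. Adam9 and Adam17 lay above these medians, and Adam10 below the first and the second and above the last. Against 0, small positive log2 fold changes turned negative under the offset in edgeR, DESeq2 and DESeq2 fitted on all genes with a count, in that order, to -0.0111, -0.0111 and -0.0164 for Adam9, -0.0801, -0.0800 and -0.0833 for Adam10, and -0.00030, -0.00042 and -0.0089 for Adam17. With 1 library left out, Adam10 ran from -0.0104 without DTR replicate 2 to 0.105, at -0.0080 without Ctrl replicate 1, and Adam23 from -0.0541 without DTR replicate 3 to 0.754, and Adam23 was at -0.0328 with the fibroblast covariate. The replicate numbers did not pair the libraries (r of deviations 0.118, 0.134 and -0.0454), and the replicate block gave 0 calls, 1271 genes at an unadjusted p under 0.05 and Adam12 at -0.43 (adjusted p = 0.575). The other 370 values kept their direction and side. At 22339635 reads and up, counting error is small beside the spread between libraries for members above 100 CPM, and relatively larger for Adam22 and Adam33, with as few as 24 reads.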
